A study of Mus musculus with 4 samples.

Results

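The regions described here are stretches of mouse liver chromatin at annotated promoters where E2A ChIP-Seq gave a called peak and GR ChIP-Seq did not. Called peaks of the 2 E2A replicates that shared at least 1 bp were merged into 4783 E2A regions, and peaks of the 2 GR replicates into 8795 GR regions. Members were chosen by these peak calls: a merged E2A region under 1500 bp wide, with a promoter annotation for any of its E2A peaks, that shared no base with a merged GR region. There were 556 such E2A-only promoter regions. They were 30.1% of the 1845 E2A promoter regions under 1500 bp. The other 1289 shared at least 1 bp with GR and are called co-bound promoter regions. The absence of a GR peak, the width and the promoter annotation were set by this choice and are not results.

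All 4 samples were livers of male C57BL/6 mice that were wild type for E47 (E47+/+), labelled as untreated, fed chow and collected at ZT10. GR and E2A were each precipitated in 2 biological replicates. The free-text descriptions of the E2A samples speak of GR, whereas titles, antibody and genotype give E2A in E47+/+ mice, and the latter were used. The label of no treatment is contradicted by a supplementary data set's description, which says Dex. The deposited lists give the start, end and nearest gene of each called peak. Counts, heights and q-values are not in them. The number of reads behind any peak is therefore unknown, and a missing peak shows only that none was called. By the paper, libraries were downsampled to a common number of read pairs for each ChIP, lower for GR than for E2A.

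E2A is the name for the protein products of the gene Tcf3, E47 and E12. They are basic helix-loop-helix (bHLH) transcription factors that bind E-boxes, short DNA sites of the form CANNTG, as homodimers or with tissue-specific bHLH partners. Id proteins lack the basic region and keep E proteins off DNA. GR, the glucocorticoid receptor, binds a palindromic response element (GRE) as a homodimer and can also be found at DNA through other factors. A promoter rich in CpG dinucleotides is typical of broadly expressed genes.

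The sequences below carry the site patterns on which the later results turn. All are from the mouse reference GRCm38.p6, whose coordinates are those of mm10, and run 5′ to 3′ on the strand named. The first group shows the cAMP response element (CRE) TGACGTCA, in capitals. It was among the motifs whose share differed between E2A-only promoter regions and promoter regions with GR but not E2A. Between E2A-only and co-bound promoter regions its share did not differ by the test. The sequences are from the first 6 members that hold the CRE in the stretch shared by both peaks. For this, members called in both E2A replicates were ranked by the width of the narrower of their 2 E2A peaks.
Rnf44, chr13:54688114-54688143, minus strand: cgggcttgtggTGACGTCAtctccgggaag
Dusp8, chr7:142095329-142095358, minus strand: ttggctgcaggTGACGTCAggggctttttc
Xpnpep3, chr15:81400063-81400092, plus strand: acctagccgagTGACGTCActgctctgcgc
Rccd1, chr7:80324196-80324225, minus strand: cgccccagtggTGACGTCAccgctcgtgcc
Coa7, chr4:108328082-108328111, plus strand: ctgaggagcgcTGACGTCAcgcacgccgcc
Nectin2, chr7:19749516-19749545, minus strand: ggcggggcctgTGACGTCAtgagtccggcc

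The second group shows the E-box cores CAGCTG and CAGGTG, in capitals, in the first 4 members for each core by the same ranking. The promoter of Rnf44, a RING finger protein gene, held both cores and 2 CREs in the stretch that the peaks of both replicates shared.
Rnf44, chr13:54688210-54688239, minus strand: cctgggttgtccCAGCTGtttaaaggcgcc
Stam2, chr2:52742142-52742171, minus strand: cggcgggtcgccCAGCTGgggcagtcggag
Ice1, chr13:70637978-70638007, minus strand: cctgtaatgaggCAGCTGacagatgcacag
Sart3, chr5:113771865-113771894, minus strand: ccaaagacccgaCAGCTGtccacggttgta
D11Wsu47e, chr11:113684606-113684635, minus strand: ggcctcttccagCAGGTGggcgtggccctt
Lyrm4, chr13:36117587-36117616, minus strand: acggggcctaggCAGGTGtagggggcgtgg
Rnf44, chr13:54687955-54687984, plus strand: aaggccgagtcgCAGGTGatgagcggtgcg
Nme6, chr9:109832793-109832822, plus strand: tggcgggagtacCAGGTGaacccagaaccc

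The third group shows the longer E-box form AACAGATG, in capitals, which was looked up after the sequences had been seen. The 6 members called in both E2A replicates are shown. Cp encodes ceruloplasmin, a copper-binding plasma protein made by the liver, and its site was centred at -6 bp from the annotated transcription start site (TSS), negative values being upstream.
Wdr92, chr11:17211797-17211826, minus strand: actgagaccgcAACAGATGcttctccacac
Rabl2, chr15:89591977-89592006, minus strand: cgggtcagtagAACAGATGcgcatcctgga
Rccd1, chr7:80324093-80324122, plus strand: atggctcggggAACAGATGgccggcggagt
Dph6, chr2:114655034-114655063, minus strand: atgtatcagggAACAGATGctgagactacc
Hdlbp, chr1:93478981-93479010, minus strand: gagcgcgcgcgAACAGATGgcgtcatcgcg
Cp, chr3:19957033-19957062, plus strand: tgtccaacacaAACAGATGacattcctttg

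The fourth group shows a pattern also noticed only in these sequences, GGCAT and CAGC separated by 9 bases of any kind, with both fixed parts in capitals. These are the 10 members that held it in the stretch their E2A peaks shared. Of these, 9 were called in both E2A replicates, and Lrrfip2 in replicate 1 alone.
Atp5l, chr9:44920911-44920940, plus strand: ggagcaGGCATtacttgggaCAGCtattca
Sf3b3, chr8:110846961-110846990, plus strand: tgatcgGGCATatctgtgggCAGCcccaaa
Farsb, chr1:78488918-78488947, minus strand: tagacaGGCATcacgtgagaCAGCccaaga
Pes1, chr11:3963911-3963940, plus strand: tgtacaGGCATattttcagaCAGCcctcag
Wdr92, chr11:17211663-17211692, minus strand: caaacaGGCATatcccaggaCAGCaattcc
Suds3, chr5:117116168-117116197, plus strand: gagtcaGGCATatccaggggCAGCcgcgcc
Xpnpep3, chr15:81399823-81399852, minus strand: gaagcaGGCATtgtcacgggCAGCtacact
Rabl2, chr15:89592088-89592117, minus strand: aaacaaGGCATcacatactgCAGCaacctg
Mrpl11, chr19:4962110-4962139, minus strand: cgcacaGGCATcaccttagaCAGCcaaaca
Lrrfip2, chr9:111118520-111118549, plus strand: ggaccgGGCATcacttgggaCAGCtgggtg

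The GR libraries differed before any comparison was made. GR replicate 1 had 4291 peaks, of which 34.3% were annotated to promoters, and GR replicate 2 had 7334 peaks with 57.4% at promoters. E2A replicate 1 had 4028 peaks with 41.2% at promoters, and E2A replicate 2 had 1892 with 37.1%. The number of E2A-only promoter regions differed with each library left out. Without GR replicate 2, 1231 regions met the rule, and without GR replicate 1 it was 615. Without E2A replicate 1, 202 regions met the rule, and without E2A replicate 2, 493.

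Of the 556 members, 363 were called in E2A replicate 1 alone, 68 in replicate 2 alone and 125 in both. Members called in both replicates were 22.5% of the class (95% Wilson interval 19.2 to 26.1%). Among all E2A promoter regions under 1500 bp, 25.9% were called in both, and among co-bound promoter regions 27.3% (24.9 to 29.8%). The share in the members was thus close to that of E2A promoter regions as a whole, and 431 of 556 members had no second E2A library behind them. These intervals cover counting error only.

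**Figure D1:**
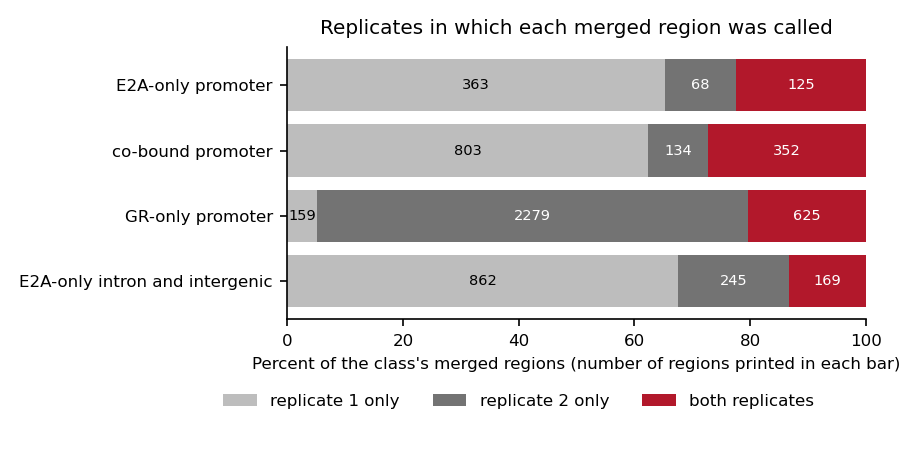
Horizontal bars give the percent of merged regions of each class called in replicate 1 alone, replicate 2 alone or both replicates of the ChIP that defines the class (E2A for 3 classes, GR for the GR-only class), with the number of regions printed in each bar. The 125 members called in both E2A replicates are the red part of the top bar, and in the GR-only class 2279 of 3063 regions came from GR replicate 2 alone.

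The width of a region is bounded by the rule and is given as a description. The merged width of the members ran from 249 to 1244 bp with a median of 368 bp, against medians of 445 bp in co-bound, 407 bp in GR-only promoter and 331 bp in E2A-only intron and intergenic regions. Members called in both E2A replicates had a median width of 498 bp, and those called in 1 replicate 346 bp (replicate 1) or 304.5 bp (replicate 2). The widest members were at Fbf1 with 1244 bp and Ccdc9 with 1204 bp, both called in replicate 1 alone. No E2A promoter region was left out for width alone, because all 26 that were 1500 bp or wider shared bases with GR. Among the narrowest of those was the region at Tob1 with 1559 bp.

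At the other edge of the rule, the member nearest to a GR region was at Plcb1, 5 bp from the edge of the GR region. Members at Cdv3 and Lrrfip2 lay 6 bp from one. Just outside, the co-bound region at Atf1 shared 1 bp with GR and that at Rab1a 7 bp. In all, 9 members lay within 100 bp of a GR region and 21 within 250 bp, which left 535 members farther away.

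The distance to GR is given as a description, since the rule left out regions that share bases with GR. No distance was taken for other promoters or positions, so it is not called near or far. The nearest GR region was at a median distance of 39328 bp, with quartiles of 11666 and 114192 bp. GR regions lay within 1000 bp of 56 members (10.1%) and more than 100000 bp from 157 (28.2%). Members called in both E2A replicates had a median of 57803 bp and 6 of 125 within 1000 bp. The members called in replicate 1 alone had a median of 36245 bp with 37 of 363 within 1000 bp, and those in replicate 2 alone 36179 bp with 13 of 68.

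**Figure D2:**
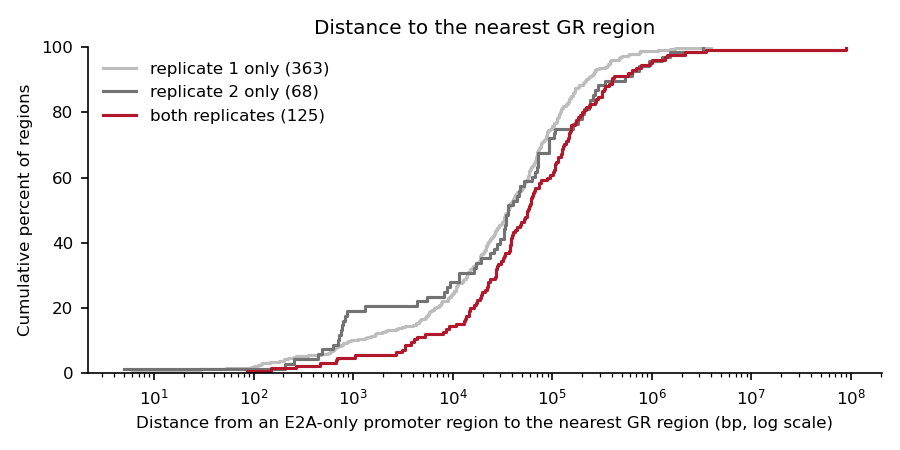
The curves give the cumulative percent of E2A-only promoter regions against the distance in bp (log scale) from the region to the nearest GR region, for members called in E2A replicate 1 alone, replicate 2 alone or both. The curve of the 125 members called in both lies to the right, with a median of 57803 bp.

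A promoter without a GR peak was not always a gene without one. The 556 members had 551 nearest genes, and 128 of these genes (23.2%) were also the nearest gene of a GR region elsewhere, 65 of them (11.8%) of a GR promoter region. Of all 21911 protein-coding genes of the GENCODE annotation, 23.4% were the nearest gene of a GR region and 18.2% of a GR promoter region. Nothing is read from these shares, since the rule left out promoter regions that share bases with GR. Another E2A region was assigned to 94 of the 551 genes, and for 55 genes an E2A region that shared bases with GR. The genes Cic, Dixdc1, Iqcc, Pfkfb3 and Gbp10 each had 2 members. Cic encodes a transcriptional repressor that is released by MAPK signalling, and its 2 members, at chr7:25267334-25268167 and chr7:25281952-25282482, were both called in both E2A replicates.

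The annotated TSS lay inside the merged region in 362 of 556 members (65.1%, 61.1 to 69.0%) and outside it in the rest. The share was 84.0% (76.6 to 89.4%) of members called in both E2A replicates and 59.0% (53.8 to 63.9%) of those called in replicate 1 alone. In co-bound regions it was 71.3% (68.8 to 73.7%) and in GR-only promoter regions 79.3% (77.8 to 80.7%), and both of these classes had wider regions. The centre of a member was at a median of -77.5 bp from the TSS, upstream, with quartiles of -209.5 and 58 bp. Co-bound centres had a median of -65 bp and GR-only centres one of 44 bp, downstream of the TSS. No test was made, because the promoter annotation that chose the members uses this distance.

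**Figure D3:**
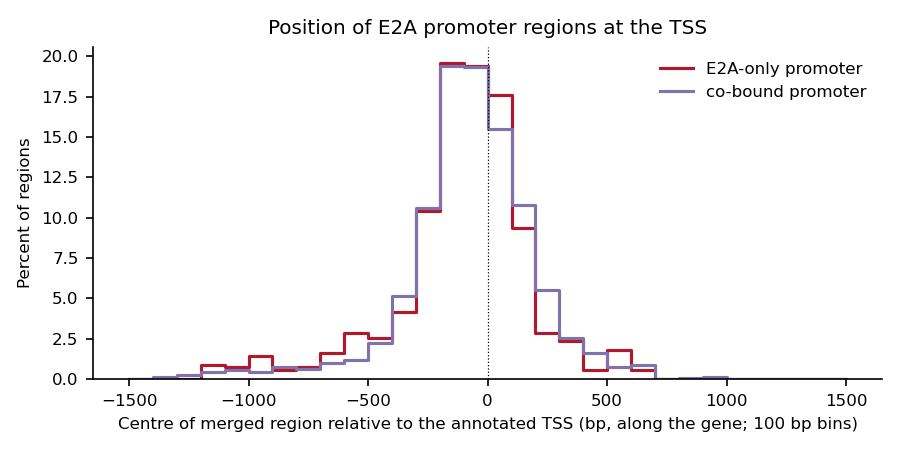
Lines give the percent of regions in 100 bp bins of the distance in bp from the TSS to the centre of the region, counted along the direction of the gene, for E2A-only and co-bound promoter regions. Both distributions peak just upstream of the TSS, with medians of -77.5 and -65 bp.

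Some members lay near the start sites of a pair of genes rather than 1. A divergent pair was counted where the TSSs of 2 protein-coding genes on opposite strands, pointing away from each other, lay at most 1000 bp apart and both within 1000 bp of the centre of the region. It was present at 64 members (11.5%, 9.12 to 14.4%), with a median of 206.5 bp between the TSSs. The share was 6.90% (5.64 to 8.42%) in co-bound and 8.91% (7.95 to 9.97%) in GR-only promoter regions. Among regions called in both replicates it was 22 of 125 members (17.6%, 11.9 to 25.2%), 9.94% of co-bound regions (7.24 to 13.5%) and 5.12% of GR-only regions (3.65 to 7.14%). Such pairs included Mrps5 with Zfp661, Hdlbp with Sept2, Lyrm4 with Fars2, Ddx31 with Gtf3c4 and Sart3 with Iscu. The region did not have to cover either TSS of a pair. The share of such pairs over all annotated TSSs was not counted. This count was made after the data had been seen and was not tested.

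The 25 members called in both E2A replicates whose narrower peak was widest had a narrower peak of 485 to 646 bp. In 21 of the 25 the TSS lay inside the peak of each replicate, with Lyrm4, Ice1, Brpf1 and Rab4b as the exceptions, and 7 were at divergent pairs. Their distances to GR ran from 4140 to 999046 bp with a median of 57987 bp. They are grouped here by what their genes are known to do, with no test of the groups.

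Genes of the secretory and endosomal pathway made up 6 of them. The first of the 25 by its narrower peak was Tmed1, which encodes a p24 protein of the early secretory pathway, at chr9:21509939-21510647. Its peak was 646 bp in E2A replicate 1 and 705 bp in replicate 2, and GR was 105565 bp away. The region at Tm9sf1, a transmembrane 9 family gene, had peaks of 671 and 534 bp. The peaks at Slc35b1, a nucleotide transporter of the endoplasmic reticulum, were 617 and 521 bp wide. Also in this group were Golga5 (a golgin), Rab4b (an endosomal GTPase) and Stam2 (an endosomal sorting adaptor). The replicates did not agree on the position at Rab4b, where the replicate 2 peak lay downstream of the TSS and the replicate 1 peak covered it.

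Genes for RNA processing and RNA helicases were the next group. Sf3b3, a subunit of the U2 snRNP, had peaks of 494 and 526 bp at chr8:110846619-110847150, 180296 bp from GR. Sart3, which acts in U4/U6 snRNP recycling, had peaks of 488 and 534 bp and was 373990 bp from GR. Upf2 acts in nonsense-mediated decay and had peaks of 488 and 547 bp. The peaks at Ddx31, a DEAD-box helicase gene, were 507 and 531 bp wide, and GR was 961863 bp away. Ice1, a subunit of the little elongation complex, had the greatest distance to GR of the 25, 999046 bp.

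Mitochondrial genes and transcriptional regulators followed. The Atp5l region, at the gene of the g subunit of ATP synthase, covered chr9:44920539-44921266 with peaks of 651 and 596 bp, 38693 bp from GR. Coq7, an enzyme of ubiquinone synthesis, had peaks of 560 and 605 bp. Lyrm4, which is needed for iron-sulfur cluster assembly, had peaks of 667 and 560 bp. Supv3l1, a mitochondrial RNA helicase gene, had peaks of 495 and 603 bp. Of the regulators, Cic had peaks of 815 and 520 bp, Brpf1, the scaffold of histone acetyltransferase complexes, 511 and 683 bp, and Elmsan1 580 and 679 bp. Elmsan1 was the only one of the 25 within 10000 bp of GR, at 4140 bp.

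Dusp10 encodes a phosphatase that inactivates JNK and p38 MAP kinases. Its region at chr1:184033898-184034539 had peaks of 521 and 642 bp, and no GR region was within 641172 bp. The other members of the 25 were at Bag6, a chaperone gene, Rnf44, Nme6, Ak6, Lrr1 and D11Wsu47e, and the map of peaks shows their extent.

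**Figure D4:**
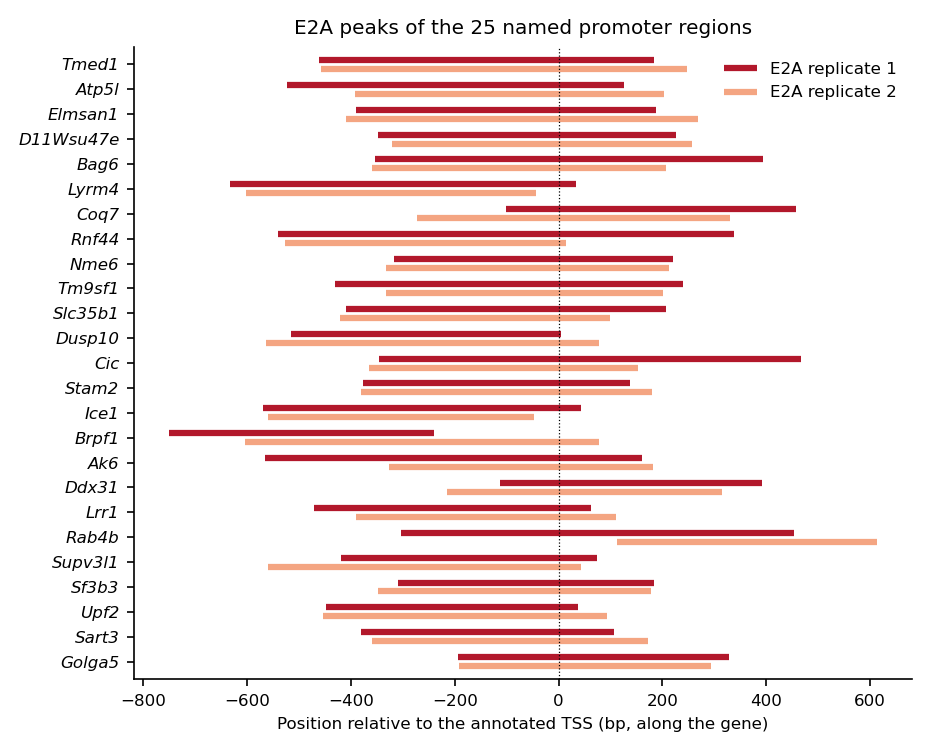
Bars show, for the 25 members called in both E2A replicates whose narrower peak is widest, the extent in bp of the peak of each E2A replicate relative to the annotated TSS, counted along the gene. In 21 of the 25 both bars cross the TSS, and 1 bar at each of Lyrm4, Ice1, Brpf1 and Rab4b does not.

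Gene lists were compared by counts. As background, 527 of the 21911 protein-coding genes of the GENCODE annotation were nearest to a member (2.41%). Nearest-gene counts grow with the number of regions in a class, and 556 members stood beside 1289 co-bound and 3063 GR-only regions. The share over all genes was not worked out for those 2 classes. Counts in them are therefore not read as a preference for a list. The lists were not tested.

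Signalling through MAP kinases was represented by 7 of 92 genes (7.61%), against 12 in co-bound and 22 in GR-only promoter regions. Among them were the kinases Braf, Mapk14 (p38 alpha) and Mapkapk5 and the phosphatases Dusp4, Dusp8 and Dusp10. The 3 phosphatase genes and Mapkapk5 were called in both E2A replicates. The Dusp8 region, chr7:142095140-142095597, had peaks of 417 and 436 bp and held 2 CREs, the first of which is shown above and was centred at -60 bp from the TSS. The Dusp4 region had peaks of 315 and 262 bp, was centred at -408 bp from the TSS and lay 398683 bp from GR. Braf was called in replicate 2 alone with 298 bp, 745751 bp from GR. Mapk14, called in replicate 1 alone, had a 304 bp peak centred at -650 bp from the TSS.

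Nuclear genes of the mitochondrial respiratory chain gave 6 of 77 (7.79%), against 3 in co-bound and 20 in GR-only promoter regions. Of the 6, Atp5l, Atp5d, Atp5g1 and Atp5o encode subunits of ATP synthase, Ndufa10 a subunit of complex I and Uqcrc1 one of complex III. Atp5l and Atp5d were called in both E2A replicates. The Atp5d region was centred at -950 bp from the TSS and lay 679 bp from GR. Atp5g1 had a 656 bp peak in replicate 1 alone, and Uqcrc1 a 268 bp peak, also in replicate 1 alone. Ndufa10 with 402 bp and Atp5o with 343 bp were called in replicate 2 alone.

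Genes for splicing and mRNA processing gave 5 of 116 (4.31%), against 17 and 33 in co-bound and GR-only regions. They were Eftud2 of the U5 snRNP, the helicase Ddx39b, Sart3, Sf3b3 and Lsm6, and all but Lsm6 were called in both E2A replicates. Their distances to GR ran from 20978 to 473391 bp. No cytosolic ribosomal protein gene of 82 was nearest to a member, beside 2.41% of all genes, and nothing is read from so small a difference. In the larger classes 12 were nearest to co-bound and 45 to GR-only promoter regions.

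Metabolic genes of glucose and lipids gave 4 of 92 (4.35%), against 22 in co-bound and 38 in GR-only promoter regions. They were Akt2, a kinase of insulin signalling, Elovl5, a fatty acid elongase, G6pc3, the broadly expressed glucose-6-phosphatase, and Pfkfb3, which makes the activator of glycolysis fructose-2,6-bisphosphate. All were called in 1 E2A replicate only. The Akt2 peak was the widest of them with 544 bp and lay 103994 bp from GR.

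Cell cycle genes gave 3 of 64 (4.69%), namely Cdk4, E2f3 and Mcm7, against 3 in co-bound and 4 in GR-only promoter regions. DNA repair genes gave 4 of 73 (5.48%), Polb, Rad51c, Fancc and Mdc1, against 1 in co-bound and 17 in GR-only regions. Genes of the proteasome and ubiquitin system gave 4 of 104 (3.85%), the ubiquitin ligase subunits Cul3 and Rbx1 and the conjugating enzymes Ube2e3 and Ube2s, against 12 in co-bound and 21 in GR-only regions. None of these 11 genes had a member called in both replicates.

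Of 53 E protein, Id and other bHLH genes, 2 were nearest to a member (3.77%, beside 2.41% of all genes), against 11 in co-bound and 9 in GR-only promoter regions. These were Id1, which encodes an inhibitor of E proteins, and Max, the dimer partner of Myc. The Id1 region, chr2:152734914-152735285, was called in replicate 1 alone, was centred at -1152 bp from the TSS and held a CRE. It lay 862 bp from a GR region.

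Of 15 hepatocyte markers, 1, the fibrinogen gene Fgb, had a member (6.67%), 8 had a co-bound and 2 a GR-only promoter region. That member, called in replicate 1 alone, was 342 bp wide, was centred at -948 bp from the TSS and lay 480 bp from a GR region. The other 59 markers were of B cells, T cells, Kupffer cells, endothelial cells, stellate cells and cholangiocytes. None of the 59 was nearest to a member or a co-bound promoter region. Of all genes 2.41% were nearest to a member, and nothing is read from so small a difference. A GR-only promoter region was at 1 cholangiocyte marker, and an E2A peak of any kind at 1 stellate marker.

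The DNA under the members was rich in G and C, but less so than under the other promoter classes. In 200 bp at the centre of each region, the median GC content was 64% in members, with quartiles of 56 and 70%, 67% in co-bound and 68% in GR-only promoter regions. It was 46.8% in E2A-only intron and intergenic regions and 59.5% in 200 bp around the outermost TSS of 21911 protein-coding genes. CpG-rich windows had over 50% GC and an observed to expected CpG ratio over 0.6. They were 67.4% of members (63.4 to 71.2%) and 76.3% of co-bound regions (73.9 to 78.6%), or 0.64 as an odds ratio (adjusted exact p = 3.7e-04). GR-only promoter regions reached 81.8% (adjusted exact p = 2.3e-12), E2A-only intron and intergenic regions 4.62% (adjusted exact p = 1.7e-179), and all TSS windows 49.7%. These p-values are from Fisher's exact test, two-sided, adjusted by the Benjamini-Hochberg method over 54 tests, of 18 features against 3 classes. Regions are not replicates of a condition, so these p-values describe the called lists.

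The lower CpG-rich share was not found without GR replicate 2. Then the members had 75.1% and the co-bound regions 70.8%, or 1.24 as an odds ratio (adjusted exact p = 0.13). The share in GR-only promoter regions was then 71.9% (adjusted exact p = 0.23). Among regions called in both E2A replicates members had 67.2% and co-bound regions 75.6% (adjusted exact p = 0.26, odds ratio 0.66). Within bins of 5% GC content, which is part of what defines a CpG-rich window, the odds ratio was 0.93 against co-bound and 0.77 against GR-only regions by the Mantel-Haenszel method, and neither was past the threshold. With GC bins and both replicates required it turned to 1.93 and, past the threshold, to 3.37.

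E-boxes did not set the members apart from co-bound promoters. Any CANNTG was in 46.9% of members (42.8 to 51.1%), 44.1% of co-bound and 41.9% of GR-only promoter regions, and in 52.4% of all TSS windows. The odds ratios were 1.12 (adjusted exact p = 0.37) and 1.23 (adjusted exact p = 0.077). Against GR-only regions the odds ratio was 1.27 without GR replicate 1, past the threshold (adjusted exact p = 0.020). It was 0.94 without GR replicate 2 and 1.06 within GC bins, neither past the threshold. CAGCTG was in 61 members (10.97%, 8.64 to 13.8%) and 10.6% of co-bound regions, and in 12.3% of TSS windows. CAGGTG was in 13.1% (10.6 to 16.2%) and 12.3%, and in 13.7% of TSS windows. CACGTG, an E-box core bound by factors such as Myc, Max and USF, was in 7.37% (5.48 to 9.85%) and 7.60%, and in 5.61% of TSS windows. None of these cores differed by the test from co-bound or GR-only promoter regions. No CANNTG was found in the central 200 bp of 295 members, and the lists give no summit on which to place the window.

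The CRE did set members apart from promoters with GR but not E2A. CREs are bound by CREB and ATF factors, which in liver act in fasting and stress responses. TGACGTCA was in 35 of 556 members (6.29%, 4.56 to 8.63%) and in 40 of 3063 GR-only promoter regions (1.31%, 0.96 to 1.77%), or 5.08 as an odds ratio (adjusted exact p = 6.7e-10). In all TSS windows it was 2.06%. Co-bound promoter regions had 4.65% (3.63 to 5.95%), which did not differ from members by the test (odds ratio 1.38, adjusted exact p = 0.28). Within bins of 5% GC content the odds ratio against GR-only regions was 5.48 by the Mantel-Haenszel method and stayed past the threshold. The windows differ in place, with median centres at -77.5 bp from the TSS in members and 44 bp in GR-only regions. In 400 bp the CRE was in 8.81% of members and 2.68% of GR-only regions (odds ratio 3.51, adjusted exact p = 1.6e-09). How much the place of the window adds to the difference was not tested.

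The CRE share differed with the E2A library. It was 3.86% (2.31 to 6.37%) in the 363 members called in replicate 1 alone, 14.7% (10 of 68) in those called in replicate 2 alone and 8.80% (4.98 to 15.1%) in the 125 called in both. Without E2A replicate 1 the odds ratio against GR-only regions was 9.40, and without E2A replicate 2 it was 3.17 (adjusted exact p = 2.3e-04). Among regions called in both replicates of a ChIP it was 8.52 (adjusted exact p = 2.8e-04). Over all 13 alternatives the odds ratio against GR-only regions ran from 3.17 to 10.4. Among regions called in both E2A replicates, the CRE was in 8.80% of members and 7.95% of co-bound regions. That odds ratio was 1.12 and was not past the threshold. Members with a CRE in the central 200 bp and called in both replicates were at Inpp4a, Klhl12, Heca, Ilvbl, Atp5d, Hlf, Hivep1, Coa7, Tead1, Dcun1d3 and Dusp8. Hlf encodes a PAR bZIP factor under circadian control, and its CRE was centred at -6 bp from the TSS. Tead1 encodes the DNA-binding partner of YAP, and its CRE was centred at -75 bp. Of the 35 members with a CRE, 30 were CpG-rich, 15 also held an E-box and 2 were at divergent pairs. In the whole stretch shared by both E2A peaks the CRE was found in 16 members outside chromosome 18, at a median of -71 bp from the TSS.

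Other promoter motifs differed less. The GC box GGGCGG, bound by SP and KLF factors, was in 49.6% of members (45.5 to 53.8%), 62.5% of co-bound regions (odds ratio 0.59, adjusted exact p = 2.3e-06) and 57.1% of GR-only regions (0.74, adjusted exact p = 0.0045), and in 41.6% of TSS windows. The direction against GR-only regions turned within bins of GC content (1.13) and without GR replicate 2 (1.498). Against co-bound regions it turned without GR replicate 2 (1.05) and was 0.72 within GC bins. The ETS motif CCGGAAG was in 7.01% of members (5.17 to 9.45%) and 12.3% of GR-only regions (odds ratio 0.54, adjusted exact p = 7.6e-04), and in 9.71% of TSS windows. The odds ratio was 0.94 without GR replicate 2 (adjusted exact p = 0.76). The CCAAT box was in 26.4% of members (22.9 to 30.3%) and 18.7% of GR-only regions (odds ratio 1.56, adjusted exact p = 2.5e-04), and in 27.7% of TSS windows. Within GC bins it was 1.31 and no longer past the threshold. The call was also lost without E2A replicate 1 (1.37, adjusted exact p = 0.15) and with both replicates required (1.09, adjusted exact p = 0.94), and with both replicates and GC bins the direction turned (0.77).

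With all libraries used, none of the motifs of GR, HNF4, C/EBP and forkhead factors set the members apart from co-bound or GR-only promoter regions by the test. The GRE, written as GNACA, 3 bases of any kind and TGTNC, was in 1 of 556 members (0.18%, 0.032 to 1.01%), 0.23% of co-bound and 1.04% of GR-only promoter regions, and in 0.26% of TSS windows. The difference from GR-only regions gave an adjusted exact p of 0.12. Without GR replicate 2 the odds ratio was 0.026 (adjusted exact p = 8.8e-09). The GRE share in GR-only regions differed with the GR library. It was 6.29% in regions called in GR replicate 1 alone, 2.24% in those called in both and 0.35% in the 2279 called in replicate 2 alone. The HNF4 motif CAAAGTCCA was in 0 of 556 members, which allows a share of up to 0.54% when taken as 3 counts (0.69% as the upper Wilson limit), in 0.54% of co-bound regions and in 0.28% of TSS windows. The C/EBP motif TTGCNNAA was in 5.58% of members (3.96 to 7.81%), 6.44% of co-bound and 4.02% of GR-only promoter regions, and in 5.45% of TSS windows. The forkhead motif TGTTTAC was in 2.88% of members (1.78 to 4.62%), 2.48% of co-bound and 1.57% of GR-only promoter regions, and in 1.48% of TSS windows.

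**Figure D5:**
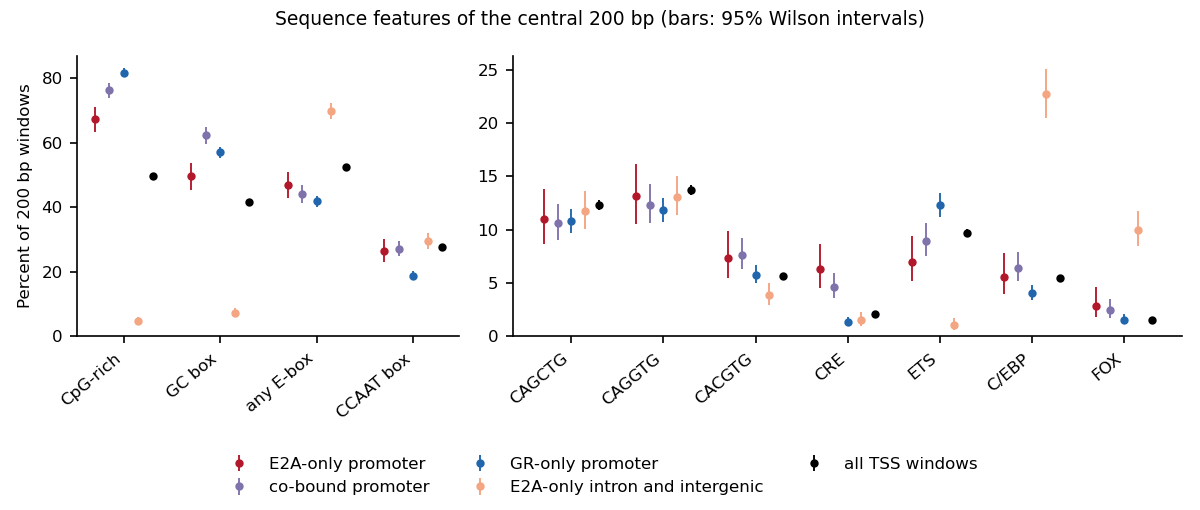
Points give the percent of 200 bp windows at the centre of the regions of each class that hold a feature, with 95% Wilson intervals, beside windows around all protein-coding TSSs (black). The CRE stands at 6.29% in members against 1.31% in GR-only promoter regions, and C/EBP at 5.58% against 22.7% in E2A-only intron and intergenic regions.

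The same factor away from promoters had other sequences. Against 1276 E2A-only intron and intergenic regions, 10 of 17 motifs differed. Any E-box was in 46.9% of members against 69.8% (odds ratio 0.38, adjusted exact p = 4.0e-19), and C/EBP in 5.58% against 22.7% (0.20, adjusted exact p = 2.0e-20). The forkhead motif was in 2.88% against 9.95%, and the AP-1 motif TGANTCA in 3.42% against 8.31%. HNF4 was in 0% against 1.88%. In all TSS windows the AP-1 and NRF1 motifs were in 3.93% and 2.76%. Higher in members were CACGTG with 7.37% against 3.84%, the CRE with 6.29% against 1.49%, ETS with 7.01% against 1.02%, the NRF1 motif GCATGCGC with 2.34% against 0.63% and the GC box with 49.6% against 7.29%. CAGCTG and CAGGTG were in 11.8% and 13.1% of the distal regions and did not differ from members by the test. Within GC bins 4 motifs passed the threshold, the E-box, C/EBP, ETS and the GC box, and among regions called in both E2A replicates 2 did, C/EBP and the GC box.

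Within the members, E-boxes and C/EBP motifs were found more often outside CpG-rich windows, a difference that was not tested. An E-box was in 148 of 375 CpG-rich members (39.5%, 34.7 to 44.5%) and in 113 of 181 others (62.4%, 55.2 to 69.2%). C/EBP was in 11 of 375 (2.93%, 1.65 to 5.18%) and 20 of 181 (11.05%, 7.27 to 16.5%).

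3 patterns were looked up after the member sequences had been seen, and no test was made of them. AACAGATG was in 11 members in the central 200 bp (1.98%, 1.11 to 3.51%), of which 6 were called in both E2A replicates (4.80%, 2.22 to 10.1%). It was in 1 of 1289 co-bound regions (0.078%), 4 of 3063 GR-only regions (0.13%), 16 of 1276 E2A-only intron and intergenic regions (1.25%) and 0.57% of TSS windows. Over whole regions, which differ in width, it was in 2.52% of members, 0.54% of co-bound, 0.46% of GR-only and 2.19% of E2A-only intron and intergenic regions. The inner core CAGATG was in 8.09% of members, 4.89% of co-bound and 5.52% of GR-only promoter regions. It was in 13.9% of E2A-only intron and intergenic regions and 9.005% of TSS windows. The spaced pattern of GGCAT and CAGC was in 8 members in the central 200 bp (1.44%, 0.73 to 2.81%), 7 of them called in both E2A replicates (5.60%, 2.74 to 11.1%), against 0.70% of co-bound regions, 0.23% of GR-only regions, 0.24% of E2A-only intron and intergenic regions and 0.19% of TSS windows. TGACATCA, which differs from the CRE in 1 letter, was in 3.60% of members (2.34 to 5.49%), 1.24% of co-bound, 0.36% of GR-only and 3.53% of E2A-only intron and intergenic regions, and in 2.32% of TSS windows.

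In whole regions the spaced pattern was in 10 members, 13 co-bound and 10 GR-only regions. Its 10 genes have varied roles. Farsb encodes a subunit of phenylalanyl-tRNA synthetase, Pes1 a factor of ribosome biogenesis, Mrpl11 a mitochondrial ribosomal protein, Suds3 a subunit of the Sin3 deacetylase complex, Xpnpep3 an aminopeptidase, Sf3b3 a splicing factor and Atp5l a subunit of ATP synthase. The centre of the pattern was at a median of -180.5 bp from the TSS, and 9 of the 10 were upstream of it. Wdr92 and Rabl2 held both patterns, and Xpnpep3 held a CRE as well.

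The members were spread over the genome, with the most on chromosome 11 (59 members, 10.6%), then chromosome 2 with 44 and chromosome 4 with 42. Chromosome X held 4 and chromosome Y 1. The member on chromosome Y was at Eif2s3y, and its X-linked homolog Eif2s3x also had a member. Both were called in both E2A replicates. The coding sequences of the pair are similar, and the authors kept uniquely mapped read pairs. These and 2 further genes called in both replicates, Epo, which encodes erythropoietin, and Tle3, a Groucho corepressor, are named here after their values had been seen.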

How the data were processed

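Peak lists of GR and E2A ChIP-Seq from wild-type mouse liver, with 2 biological replicates of each, were analysed. By the paper's methods, alignment to mm10 was with BWA-MEM and Picard took out duplicates. Uniquely mapped pairs were downsampled to a common number for each ChIP, lower for GR than for E2A. The authors then called peaks in every sample with MACS2. The submitters' processing notes give BWA 0.7.13, Picard 1.119 and MACS2 2.1.0. The paper names the same BWA version but later versions of Picard and MACS2, and which were used is not settled. The control, the peak threshold and the annotation tool are not given in the sources used here. The deposited values are peak coordinates and distances to the TSS in bp, with no normalization and no counts. Group and replicate came from the sample titles. For GR, titles and file names number the replicates oppositely, and the titles were followed.

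Regions were merged and classed as described above, and sequence was read from GRCm38.p6 in the central 200 bp, on both strands. The motifs also searched were STAT5 (TTCNNNGAA), YY1 (AAGATGGC) and ZNF143 (TACAANTCC), found in 4.50%, 2.88% and 1.08% of members and in 4.69%, 2.83% and 1.32% of TSS windows, and CANNTG includes its cores. Between classes, shares were tested by Fisher's exact test (two-sided), adjusted by the Benjamini-Hochberg method over 54 tests at a threshold of 0.05. Named genes were the 25 members called in both E2A replicates with the widest narrower peak, every member on a gene list, and those next to the thresholds, some of which are not reported here. Sequences printed for the CRE and E-boxes came from the same ranking, leaving out chromosome 18. The members and gene lists were chosen with earlier results of these data known. Alternatives left out each replicate, changed the width, GR distance, promoter and window limits, kept 1 region per gene, required both replicates, or tested within bins of 5% GC. Python 3.11.15, pandas 2.3.3, scipy 1.17.1, statsmodels 0.14.6 and pysam 0.24.0 were used, and the code was tested on simulated data.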

Additional observations from a re-analysis of the deposited data

How the results depend on the processing

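By the paper, both ChIPs used the same livers. No source used here says which GR replicate shares a liver with which E2A replicate, so the replicates share a number only. For GR that number follows the titles, which the file names reverse, and blocks by file name were not run. With the replicate number as a block, chosen after seeing the data, 1100 regions met the rule in the lists numbered 1 and 221 in those numbered 2. The odds ratio for CpG-rich windows against co-bound regions was then 1.24 and 0.66, neither past the threshold, the motifs that differed from co-bound regions numbered 2 and 0, and the CRE odds ratio against GR-only regions was 4.59 and 9.29, both past the threshold. The number of members ranged from 202 to 1231 when 1 replicate was left out, 1231 without GR replicate 2 and 202 without E2A replicate 1, and was 362 when the TSS had to lie inside a peak and 125 when both E2A replicates were required. Members called in both E2A replicates were 29.0% when the TSS had to lie inside a peak, and from 21.95 to 22.6% without a GR replicate. The odds ratio for CpG-rich windows against co-bound regions ranged from 0.61 to 1.24 when 1 replicate was left out. It reversed to 1.24 without GR replicate 2, was past the threshold no longer without E2A replicate 1 (0.66), and was 0.76 with the TSS inside a peak and 0.66 with both replicates required. Chosen after seeing the data, it was 0.93 within GC bins and reversed to 1.93 with both replicates required as well. The number of motifs that differed was 1 against co-bound, 4 against GR-only and 10 against intron and intergenic regions. In 400 bp it was 2 and 8 against co-bound and GR-only regions. With both replicates required it was 2 against GR-only and 2 against intron and intergenic regions, and within GC bins 2 and 4. With both of these, chosen after seeing the data, it was 0, 1 and 0 of 17 motifs against the 3 classes. Without 1 replicate it was 1, 4 to 5, and 8 to 11. The GC box reversed against GR-only regions to 1.498 without GR replicate 2 and to 1.13 within GC bins, and against co-bound regions to 1.05 without GR replicate 2. Leaving out 1 replicate gave the GC box odds ratios of 0.64 to 1.498 against GR-only and 0.58 to 1.05 against co-bound regions. With both replicates required and GC bins, the forkhead motif reversed against intron and intergenic regions to 1.01 and the CCAAT box against GR-only regions to 0.77. The causes were not tested. The CRE kept its direction and its side of the threshold against GR-only regions under these 13 alternatives, the replicate block apart. The number of reads behind a peak is unknown, and GR libraries were downsampled to fewer read pairs than E2A libraries. Both limit what a missing peak shows.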
